A study of Mus musculus with 12 samples.

Results

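The Myc, Max and Mxd network is a small family of DNA-binding proteins, and its mRNAs were examined here in A2C12 cells, a line grown from a lung tumour of a mouse carrying c-myc and c-raf transgenes. Earlier results of these data were known when the 10 genes were chosen, by name and not by a rule on their measured values. The genes are Myc, Mycn, Max, Mxd1, Mxd3, Mxd4, Mxi1, Mnt, Mlx and Mga. They were 10 of the 18193 mouse genes with a probe set of their own on the arrays, and they were read by 26 of the 45101 probe sets. A probe set is a group of short probes for 1 transcript.

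The cells were sorted by the fluorescent Hoechst dye into SP cells (the side population, which exports the dye) and non-SP cells (the rest). The dye was given at 5 µg/ml for 90 min with or without 50 µmol/l reserpine, a blocker of dye export, and the labels do not say which of the 12 samples, if any, received reserpine. Some cells had been exposed to a monoclonal antibody against mouse EpCAM, an epithelial surface protein, at 100 µg/ml for 48 h, and the others were untreated. This gave 4 groups of 3 arrays each: SP anti-EpCAM, non-SP anti-EpCAM, SP untreated and non-SP untreated. All 4 groups shared the line, its C57BL/6 background and both transgenes, so no group without a Myc transgene was compared. A single line stands for the model, and the sources used here do not give the promoter that drives the transgenes. No group with a control antibody was analysed here, and an effect of the antibody cannot be told apart here from one of adding any antibody. The labels call the 3 arrays of a group biological replicates without naming separate cultures.

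Myc and its relative Mycn activate genes after pairing with Max through a helix-loop-helix leucine zipper, and the pair binds the E-box CACGTG. Mxd1, Mxi1, Mxd3, Mxd4 and Mnt also pair with Max, bind the same E-box and bring in Sin3 corepressors with histone deacetylases, so they oppose Myc. Mlx is an alternative partner for Mxd1, Mxd4, Mnt and the glucose-sensing Mondo proteins, and Mga, which has a T-box as well, pairs with Max in a repressive Polycomb complex. Myc is typical of dividing cells and Mxd1 of cells that have stopped dividing, while Mxd3 is known from mouse cells in S phase.

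The E-box is itself present near the start of several of these genes, and the windows around it are shown because it is the sequence the whole family reads. RefSeq promoters (build GRCm38.p6, 250 bases before to 50 after each annotated start) were listed for 9 members in 11 windows, with none for Myc. Of the 9 members, 4 held CACGTG, each in 1 window. Counted by window this is 4 of 11, and of all 32851 promoters of this length, 7.15% held it. The motif reads the same on both strands, so a search of 1 strand covers both. Each line gives 30 bases on the gene's own strand, with the E-box in capitals.
Max: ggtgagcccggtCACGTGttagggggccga
Mxd4: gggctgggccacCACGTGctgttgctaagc
Mnt: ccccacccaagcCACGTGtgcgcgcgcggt
Mlx: ggtgggttggatCACGTGactgagcctcgc
The Max window lies at chr12:76962234-76962263 on the minus strand, and there the E-box spans the annotated start itself. The Mxd4 window lies at chr5:34187912-34187941 on the minus strand. The Mnt window is at chr11:74830789-74830818 and the Mlx window at chr11:101087238-101087267, both on the plus strand. A match describes these letters and says nothing of binding in A2C12 cells.

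The array medians lay between 5.72 and 5.86 log2 units in anti-EpCAM cells, against 5.80 and 6.06 in untreated cells, so the medians differ by about as much as many members do below. Values of the SP and the non-SP array with the same treatment and replicate number deviated together from their group means, so each such pair of arrays is called a pair below. The labels do not say what a pair shares, and a common culture, day or batch cannot be told apart. The actin probe sets, which compare the 3′ end with the 5′ end of the mRNA, differed by 1.03 in SP and 0.895 in non-SP cells of anti-EpCAM replicate 2, the highest on the 12 arrays. They differed by 0.733 in SP and 0.404 in non-SP cells of untreated replicate 3, and by at most 0.396 elsewhere. Averages over the 12 arrays ranged widely within each marker list: from 5.43 (Cldn4) to 11.7 (Krt19) for the 6 epithelial markers, Epcam being at 8.11, and from 5.04 (Sftpa1) to 9.01 (Abca3) for the 7 alveolar type II markers. They ranged from 9.27 (Dcn) to 12.6 (Col1a2) for the 5 fibroblast markers, from 3.42 (Ptprc) to 9.98 (Csf1r) for the 5 leukocyte markers and from 4.50 (Tek) to 6.70 (Kdr) for the 4 endothelial markers. Their part in the values below was not tested. In RNA from many sorted cells, fewer expressing cells and less RNA per cell cannot be told apart.

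None of the 10 members differed between SP and non-SP cells or between anti-EpCAM and untreated cells at an adjusted p under 0.05 in limma, a linear model fitted across all 18193 genes. The share of all genes called was 0% in each of the 7 comparisons, so the members' count equals the background. For each member, pairs differed from each other more than the fractions of a pair did. The widest member was Mxd3, with a 4.03-fold range over the 12 arrays, and the narrowest was Mnt, with a 1.36-fold range.

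**Figure D1:**
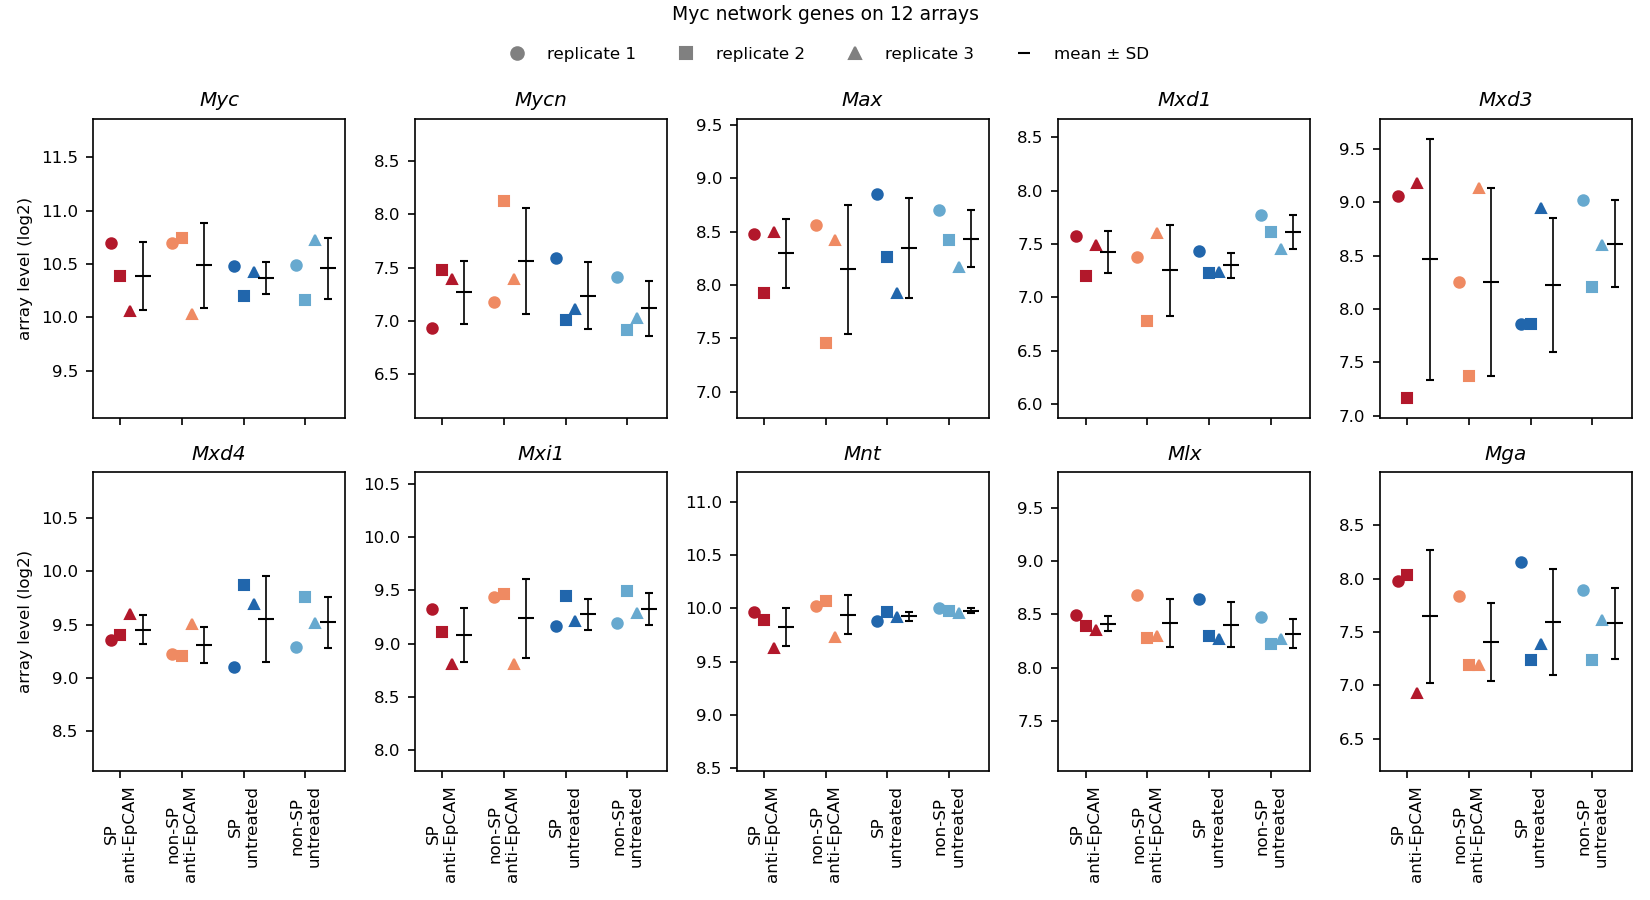
Level of each member (log2, lead probe set) on the 12 arrays, by group, with replicates 1, 2 and 3 as circles, squares and triangles and the group's mean ± SD beside them. Every vertical axis spans the same number of log2 units, so the wide scatter of Mxd3 and the narrow one of Mnt can be compared by eye, and the groups of every gene except Mxd1 in untreated cells overlap.

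Myc, the growth-promoting transcription factor whose transgene the line carries, was read by a single probe set. Its log2 levels were 10.70, 10.39 and 10.06 in SP anti-EpCAM cells (replicates 1 to 3), against 10.69, 10.74 and 10.03 in non-SP anti-EpCAM cells. They were 10.48, 10.20 and 10.42 in SP untreated cells, against 10.49, 10.16 and 10.73 in non-SP untreated cells. All 4 groups overlapped, and whether this probe set also reads the transgene's mRNA was not tested. SP minus non-SP averaged -0.10 ± 0.16 over both treatments (SE, 12 arrays), with a 95% interval of -0.45 to 0.25 and an adjusted p of 1.00 in limma. With each pair as a block (the replicate block), which compares the fractions within pairs, the interval was -0.29 to 0.09. In 4 of the 6 pairs the SP and non-SP arrays differed by no more than 0.04 in Myc. In the other two, anti-EpCAM replicate 2 and untreated replicate 3, SP minus non-SP was -0.35 and -0.31, and these are the pairs with the highest actin differences. Whether RNA quality has a part in this was not tested. Anti-EpCAM minus untreated was 0.02 ± 0.23 in SP cells and 0.03 ± 0.23 in non-SP cells.

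Mycn, the neural relative of Myc, had 3 probe sets, and the lead one (the brightest on average, used for the tests) gave 6.93, 7.48 and 7.39 in SP anti-EpCAM cells, against 7.17, 8.12 and 7.39 in non-SP anti-EpCAM cells. The untreated values were 7.59, 7.01 and 7.11 in SP cells, against 7.41, 6.92 and 7.03 in non-SP cells. The non-SP array of anti-EpCAM replicate 2 stood highest, and all groups overlapped. Anti-EpCAM minus untreated was 0.45 ± 0.26 in non-SP cells, with an interval of -0.12 to 1.01 and an adjusted p of 0.988 in limma. Without the non-SP array of anti-EpCAM replicate 2 it was 0.17, and over each array left out it ran from 0.17 to 0.64. The actin difference of that array was among the highest, and its part in the value was not tested. The 2 other Mycn probe sets gave -0.41 and -0.08 there, and correlated with the lead one at r = -0.30 and 0.26 over the 12 arrays, so the direction rests on 1 probe set.

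Max, the obligate partner of Myc and a partner of its antagonists, was read by a single probe set. Its levels were 8.48, 7.92 and 8.49 in SP anti-EpCAM cells, against 8.56, 7.45 and 8.42 in non-SP anti-EpCAM cells. In untreated cells they were 8.86, 8.26 and 7.92 for SP, against 8.71, 8.42 and 8.17 for non-SP. The lowest pair came from anti-EpCAM replicate 2 and the highest from untreated replicate 1, so the position of an array followed its pair more than its fraction. The standard deviation of the pair means within a treatment was 0.42, against 0.17 within a pair. SP minus non-SP averaged 0.03 ± 0.22, with an interval of -0.44 to 0.50.

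Among the antagonists, Mxd1 was the member whose fractions separated, and this was in untreated cells. Under anti-EpCAM the SP values were 7.57, 7.20 and 7.49, against 7.38, 6.77 and 7.61 in non-SP cells, which overlapped, and SP minus non-SP was 0.17 ± 0.21. In untreated cells SP gave 7.43, 7.23 and 7.24, against 7.77, 7.61 and 7.45 in non-SP cells, and the 2 groups did not overlap. Mxd1 was 1 of 10 members lower without overlap in that comparison, where 1.13% of all genes were lower without overlap, and 0 of 10 were higher, beside 1.24% of genes. The untreated difference was -0.31 ± 0.21, with an interval of -0.76 to 0.14 and an adjusted p of 1.00 in limma. The 2 fraction effects differed by 0.48 ± 0.29, with an adjusted p of 1.00 in limma's interaction test. With the replicate block the unadjusted p of that interaction was 0.0185 and the adjusted p 0.767. Without the non-SP array of anti-EpCAM replicate 2 the interaction was 0.24. The other Mxd1 probe sets gave -0.15 and -0.03 in the untreated comparison and 0.11 and 0.10 for the interaction, smaller than the lead one.

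Mxd3 had the widest spread of the network. In anti-EpCAM cells its levels were 9.06, 7.17 and 9.18 for SP, against 8.25, 7.38 and 9.13 for non-SP. In untreated cells they were 7.86, 7.86 and 8.95 for SP, against 9.03, 8.21 and 8.60 for non-SP. Both anti-EpCAM replicate 2 arrays lay below the other 10, and the groups overlapped. The standard deviation over the 12 arrays was 0.71, larger than in 99.2% of all genes. The other 2 Mxd3 probe sets followed the lead one at r = 0.76 and 0.93, and all 3 were lowest in SP cells of anti-EpCAM replicate 2. For SP minus non-SP the other 2 gave 0.01 and -0.34 in untreated cells, against -0.39 for the lead one. Under anti-EpCAM they gave -0.03 and -0.07, against 0.21 for the lead one. SP minus non-SP was 0.81, -0.21 and 0.04 in the 3 anti-EpCAM pairs and -1.16, -0.35 and 0.35 in the 3 untreated ones, so the fractions had no common direction. In limma without the replicate block the intervals were wide: -0.95 to 1.38 for SP against non-SP under anti-EpCAM and -1.55 to 0.77 without it. A 2-fold higher level in SP lies within the first interval, and a 2-fold lower level in SP within the second. With the replicate block the interval under anti-EpCAM was -0.41 to 0.84, which does not hold a 2-fold higher level. In untreated cells it was -1.01 to 0.23, which still holds a 2-fold lower level.

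**Figure D2:**
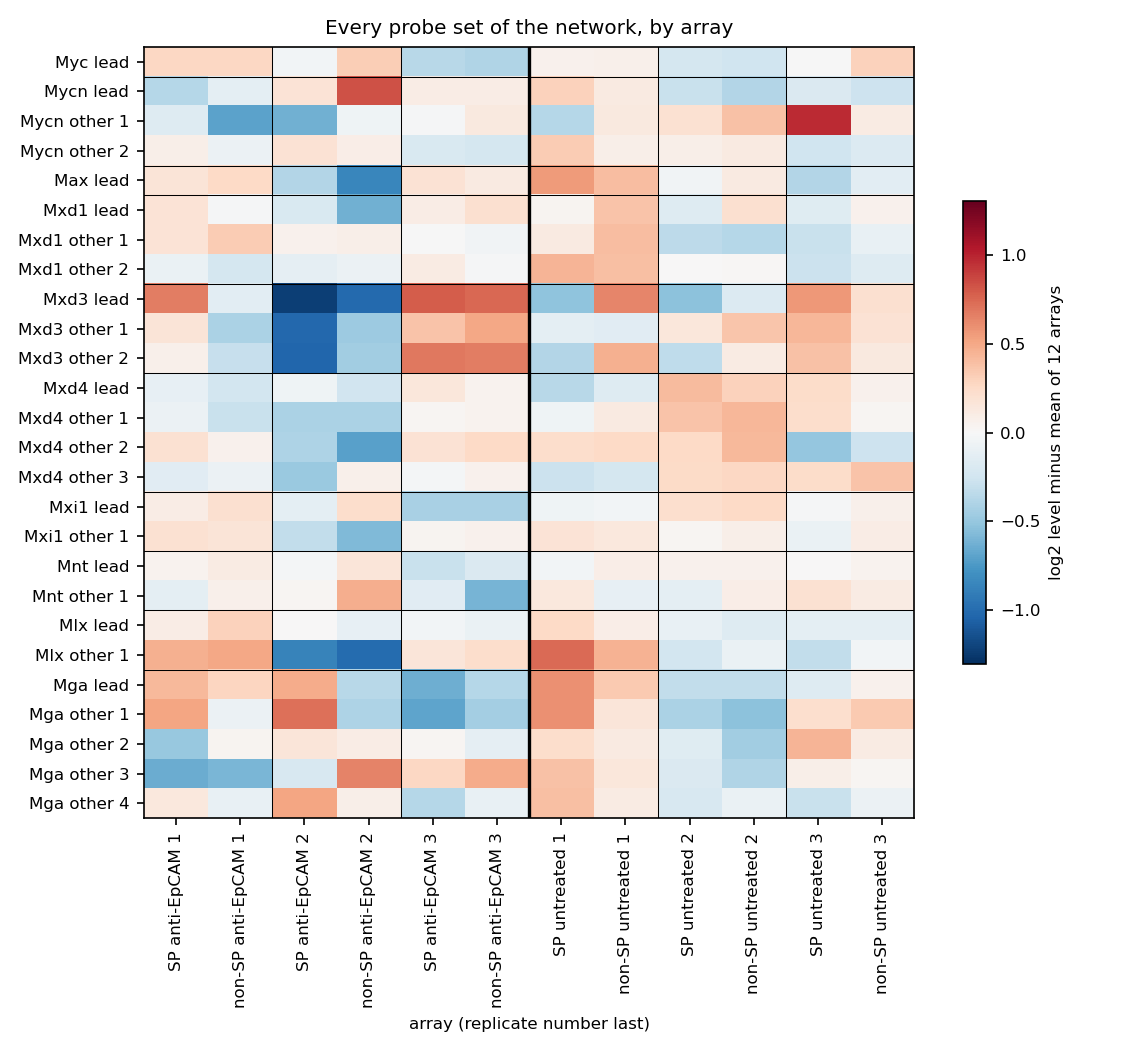
Heat map of log2 level minus each probe set's own mean over the 12 arrays, with 1 row for each of the 26 probe sets and the SP and non-SP arrays of a pair side by side (red above, blue below the mean). The 3 Mxd3 rows are all darkest blue in SP cells of anti-EpCAM replicate 2 but differ in colour on some untreated arrays. The other Mycn and Mxd1 rows follow their lead rows less closely than the other Mxd3 rows do.

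Mxd4, another Max-binding repressor, had lead values of 9.35, 9.40 and 9.60 in SP anti-EpCAM cells, against 9.22, 9.21 and 9.51 in non-SP anti-EpCAM cells. Untreated values were 9.10, 9.87 and 9.70 in SP cells, against 9.29, 9.76 and 9.52 in non-SP cells. SP was higher in 5 of 6 pairs, the exception being untreated replicate 1 at -0.19, and the mean of both treatments was 0.09 ± 0.15. The mean over all 4 Mxd4 probe sets gave -0.01 instead.

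Mxi1, the repressor also called Mxd2, gave 9.32, 9.11 and 8.81 in SP anti-EpCAM cells, against 9.43, 9.46 and 8.81 in non-SP anti-EpCAM cells. In untreated cells the values were 9.17, 9.44 and 9.21 for SP, against 9.20, 9.49 and 9.29 for non-SP. SP was lower in 5 of the 6 pairs, and the sixth, anti-EpCAM replicate 3, had equal values on both arrays. With arrays centred on their medians SP was higher in 1 pair, and with a second quantile normalization in 2. The mean difference was -0.10 ± 0.14. The second Mxi1 probe set did not track the lead one (r = -0.11) and gave 0.01 for the mean of both treatments.

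Mnt, the broadly expressed Max partner that competes with Myc, was the steadiest member. Its levels were 9.96, 9.89 and 9.63 in SP anti-EpCAM cells, against 10.02, 10.07 and 9.73 in non-SP anti-EpCAM cells. They were 9.88, 9.97 and 9.92 in SP untreated cells, against 10.00, 9.98 and 9.96 in non-SP untreated cells. The SP array was the lower one in all 6 pairs, by amounts between -0.01 and -0.18, and 0.786% of all genes were lower in all 6. The mean was -0.08 ± 0.06 (SD, 6 pairs), and the difference had an adjusted p of 1.00 in limma and 0.950 with the replicate block. Once arrays were centred on their medians, SP was lower in 5 of 6 pairs and higher by 0.03 in untreated replicate 2. With a second quantile normalization SP was lower in all 6, as were 0.989% of all genes. The dimmer second Mnt probe set gave -0.01 for the mean of both treatments.

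Mlx, the partner of the Mondo proteins, had levels of 8.49, 8.39 and 8.35 in SP anti-EpCAM cells, against 8.68, 8.28 and 8.30 in non-SP anti-EpCAM cells. The untreated levels were 8.65, 8.30 and 8.27 in SP cells, against 8.47, 8.22 and 8.27 in non-SP cells. Replicate 1 was the highest in every group. Its second probe set varied far more, with a standard deviation of 0.54 against 0.15, and stood lowest in anti-EpCAM replicate 2, at 7.02 in SP and 6.90 in non-SP cells.

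Mga, the T-box partner of Max, gave 7.98, 8.04 and 6.92 in SP anti-EpCAM cells, against 7.83, 7.19 and 7.19 in non-SP anti-EpCAM cells. In untreated cells it gave 8.15, 7.23 and 7.39 for SP, against 7.90, 7.23 and 7.62 for non-SP. SP exceeded non-SP by 0.84 in anti-EpCAM replicate 2 while SP minus non-SP was -0.27 in anti-EpCAM replicate 3. Anti-EpCAM replicate 2 had the highest actin differences, and their part in the value was not tested. Of the 4 further Mga probe sets, 2 followed the lead one at r = 0.90 and 0.79, and the others gave r = 0.14 and -0.35. In that order they gave SP minus non-SP of 0.49, 0.13, -0.11 and -0.37 under anti-EpCAM, against 0.24 for the lead one.

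**Figure D3:**
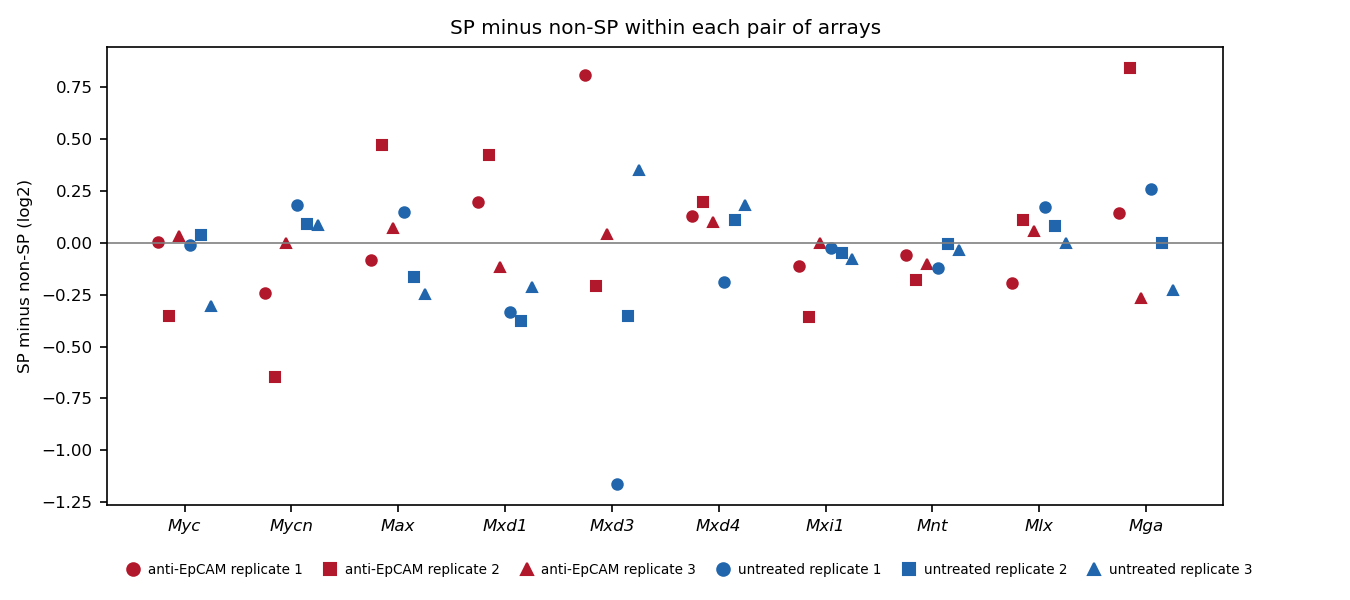
SP minus non-SP (log2) within each of the 6 pairs, anti-EpCAM pairs in red and untreated ones in blue, for each member. Mnt lies below 0 in all 6 pairs by small amounts, Mxd1 lies below 0 in the 3 untreated pairs, and Mxd3 ranges from -1.16 to 0.81.

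Whether SP cells differ from non-SP cells was asked separately in each treatment. Under anti-EpCAM the members' differences ran from -0.30 for Mycn to 0.24 for Mga, with a median of 0.07, against -0.03 over all genes. In untreated cells they ran from -0.39 for Mxd3 to 0.12 for Mycn, with a median of -0.05, against 0.01 over all genes. For 9 of 10 members in each treatment, all but Mxd3, the 95% interval lay within a 2-fold change, and 93.4% of all genes met this under anti-EpCAM and 96.5% without it. Averaged over both treatments, the intervals of all 10 members lay within 2-fold, as did those of 99.3% of all genes. With the replicate block, 10 of 10 members met this under anti-EpCAM, beside 98.6% of all genes. In untreated cells 9 of 10 did, beside 99.6%. Without the block no member had an unadjusted p under 0.05 in limma in either treatment, where 0.698% of genes under anti-EpCAM and 0.022% in untreated cells did. That fit leaves out the pairs. Its 95% intervals reached 0.46 to either side for the typical gene, against 0.27 with the block, so low counts there do not show alike fractions. With the replicate block, limma gave Mycn an unadjusted p = 0.0439 and an adjusted p = 0.628 under anti-EpCAM, the only member under that level, beside 7.21% of all genes. The difference of -0.30 became -0.02 without the non-SP array of anti-EpCAM replicate 2, and the other Mycn probe sets gave -0.06 and 0.10. It gave Mxd1 an unadjusted p = 0.0272 and an adjusted p = 1.00 in untreated cells, again the only member, beside 1.68% of all genes. Under anti-EpCAM 0 of 10 members were higher or lower in SP without overlap, beside 0.572% and 1.78% of all genes. For the mean of both treatments 0 members had an unadjusted p under 0.05, beside 0.104% of genes, and 0 with the block, beside 2.13%. No member was higher in SP in all 6 pairs, beside 0.682% of genes.

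Whether the antibody changed the network was asked in each fraction. The median of all genes was itself lower in anti-EpCAM cells, by -0.12 in SP and -0.10 in non-SP cells, so each value is read against that shift. In SP cells the members ran from -0.19 for Mxi1 to 0.24 for Mxd3, and 9 of 10 lay above the median of all genes. In non-SP cells they ran from -0.36 for Mxd3 to 0.45 for Mycn, and 5 of 10 lay above that median. Relative to the shift, Myc was at 0.14 in SP and 0.13 in non-SP cells, and Mxd1 at 0.24 in SP and -0.26 in non-SP cells. No member had an unadjusted p under 0.05 in limma, where 4.59% of genes in SP and 3.22% in non-SP cells did, nor with the replicate block, where 6.37% and 5.11% did. For the antibody this block is the replicate number, shared by treated and untreated arrays. No member's anti-EpCAM arrays lay wholly above the untreated ones, beside 0.434% of genes in SP and 1.19% in non-SP cells. None lay wholly below them, beside 8.04% and 6.62% of genes. This lean of all genes depends on the array scaling. At an unadjusted p under 0.05, 20 genes were higher and 815 lower in SP cells, against 102 and 279 with arrays centred on their medians, and 94 were higher and 491 lower in non-SP cells, against 497 and 94 with centring. Averaging the arrays of each pair first, so that 3 values stood against 3, gave members' differences from -0.17 for Max to 0.24 for Mycn, all with adjusted p of at least 0.991 in limma. Unadjusted, 0 members were under 0.05, beside 2.53% of genes, and 0 with the block, beside 1.92%. Every member's interval then lay within 2-fold, as did 95.9% of all genes' intervals.

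Whether the fraction effect depended on the antibody was tested by the interaction. It ran from -0.42 for Mycn to 0.60 for Mxd3 among the members, with no unadjusted p under 0.05 in limma, beside 0.236% of genes. With the replicate block Mxd1 and Mycn passed the unadjusted level (2 of 10, beside 5.51% of genes) and neither passed the adjusted one (0.767 for both). Without the block 5 of the 10 intervals lay within 2-fold, beside 71.9% of all genes' intervals. With it 9 of 10 did, beside 94.1%.

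**Figure D4:**
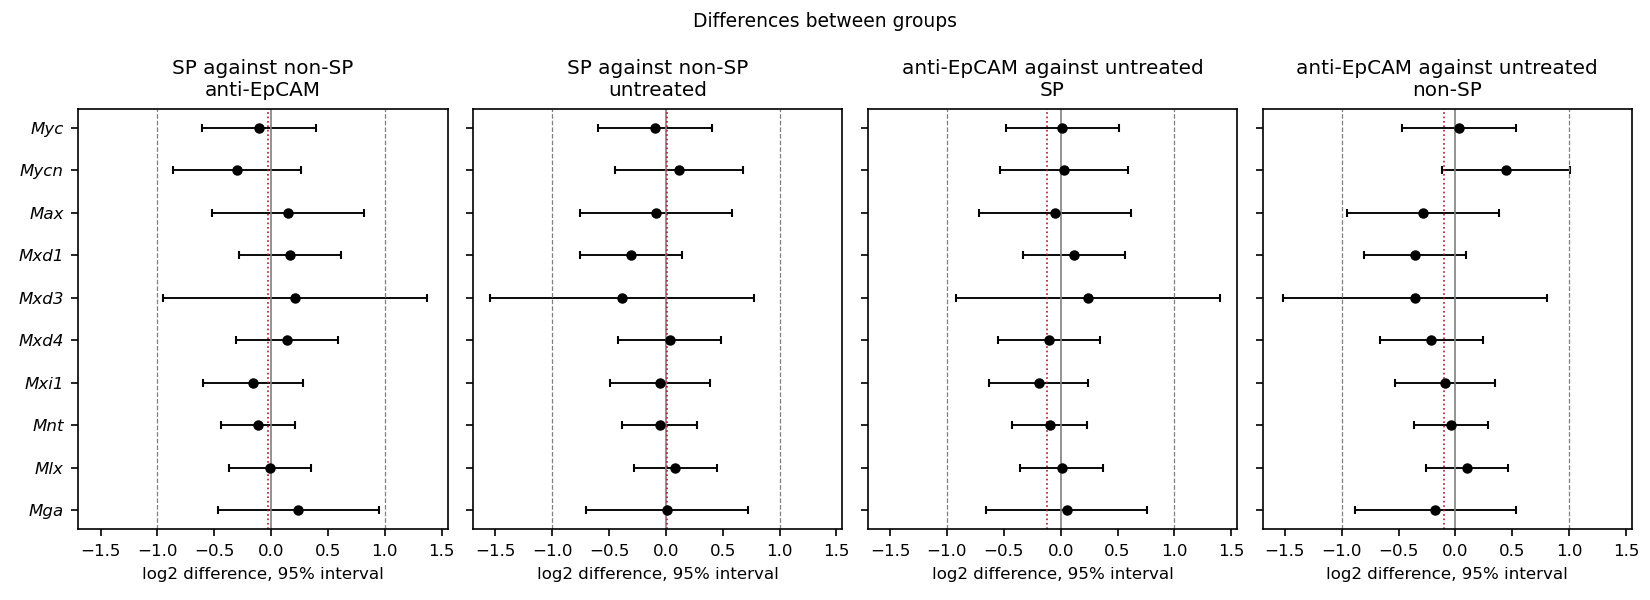
Log2 difference of each member in the 4 comparisons of groups, with 95% intervals from limma without the replicate block. The median of all genes is a red dotted line and 2-fold changes are grey dashed lines. Every interval includes 0, and those of Mxd3 are the widest.

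Differences between pairs exceeded those between fractions for all 10 members, and for 78.9% of all genes. The pair means of Mxd3 within a treatment had a standard deviation of 0.74, against 0.44 within a pair. For Mnt the values were 0.13 and 0.07. The typical gene had 0.24 between and 0.15 within. The extremes fell on 5 of the 6 pairs. Anti-EpCAM replicate 1 was the highest for Myc, Mnt and Mlx, as it was for 14.1% of all genes. Anti-EpCAM replicate 2 was the lowest for Max, Mxd1 and Mxd3, as for 32.0% of genes, and the highest for Mycn, as for 12.04%. Anti-EpCAM replicate 3 was the lowest for Myc, Mxi1, Mnt and Mga, as for 26.1% of genes, and the highest for Mxd3, as for 7.81%. Untreated replicate 1 was the lowest for Mxd4, as for 2.86% of genes, and the highest for Max, Mxd1 and Mga, as for 30.3%. Untreated replicate 2 was the lowest for Mycn and Mlx, as for 18.7% of genes, and the highest for Mxd4 and Mxi1, as for 11.96%. Without both arrays of anti-EpCAM replicate 2, 0 members were called in any comparison, beside 0 of all 18193 genes.

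**Figure D5:**
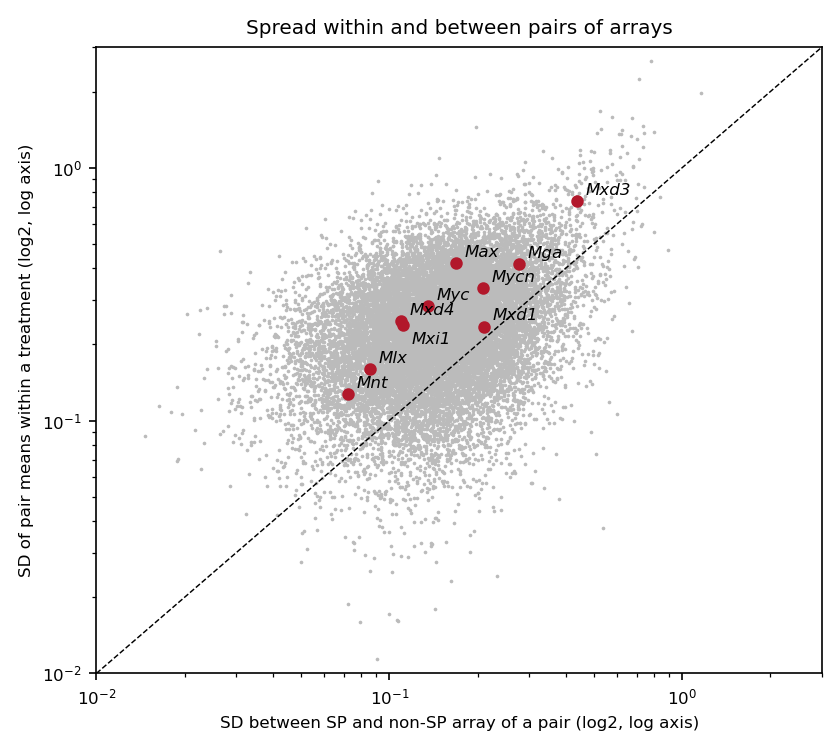
Standard deviation of pair means within a treatment (vertical) against that between the fractions within a pair (horizontal), both log2 on log axes, for all genes in grey and the members in red, with equality as a dashed line. All 10 members lie above the line, Mxd3 at the upper right and Mnt at the lower left.

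Some members moved together across pairs. Max and Mxd1 correlated at r = 0.83 over the 12 arrays and 0.95 over the 6 pair means, and Mxi1 and Mnt at 0.91 and 0.94. Mxd4 ran opposite to Mlx, at -0.73 and -0.82. These are descriptions, since the arrays of a pair deviate together and all arrays share a scaling. Among 8901 genes above the median level, without those named only as clones or predicted genes, those most like Myc were Gpcpd1 (r = 0.95), Raph1 (0.95) and Gpc4 (0.95) over the 12 arrays. Those most like Mxd3 were Lbh (0.97), Vrk1 (0.96), a kinase of dividing cells, and Stat5b (0.95). Max was nearest to Arhgap35 (0.99), Psmd8 (0.98) and the ribosomal protein gene Rps7 (0.98), and Mnt to Mxi1 (0.91), Csf1r (0.90) and Nup88 (0.90). The best match of a typical gene in the same search had r = 0.96, so likeness of this size is common on these arrays.

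Other genes of the pathway gave the same counts. No gene of any list passed the adjusted threshold in any of the 7 comparisons, beside 0% of all genes. The 30 Myc-activated targets had a median SP minus non-SP difference of 0.04 over both treatments, and the 12 Myc-repressed targets one of 0.02, against -0.01 over all genes. For anti-EpCAM against untreated pair means, the medians were -0.03 and -0.04, against -0.11 over all genes, and 27 of the 30 activated and 9 of the 12 repressed targets lay above that median. The 9 targets of Mlx and Mondo proteins had a median of -0.15 and 2 of 9 above it. The corepressors of Mxd and Mnt (8 of 11 measured) had medians of 0.01 by fraction and -0.13 by antibody. The Mga complex (9 of 10 measured) had 0.03 and -0.01, and the Myc coactivators (11 of 12 measured) 0.00 and -0.04. The genes of Myc turnover (11 of 12 measured) had 0.02 and -0.09. Among the 6 further network genes, with medians of 0.01 and -0.14, Mlxipl, the Mondo protein ChREBP, was at -0.51 ± 0.18 in SP anti-EpCAM against SP untreated cells (unadjusted p = 0.0146, adjusted p = 1.00 in limma). The telomerase gene Tert, of the activated targets, was at -0.44 ± 0.20 there (unadjusted p = 0.0455, adjusted p = 1.00 in limma). At an unadjusted p under 0.05 in limma these were 1 of the 6 further network genes and 1 of the 30 activated targets. The share of all genes at that level was 4.59% in this comparison, where the median of all genes was -0.12.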

How the data were processed

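RNA of the 12 sorted samples was hybridised to 1-colour Affymetrix arrays. The deposited table holds log2 values that the authors summarised with RMA, per the submitters' processing notes; which program ran RMA is not stated, and no detection calls were used. The number of arrays limits the precision. Probe sets were named through a 2016 platform annotation: 34945 had 1 gene symbol, 932 several and 9224 none or a control's, and only the first were used. Each gene was tested by its probe set with the highest mean. limma 3.58.1 in R 4.3.3 fitted 4 group means (lmFit, eBayes, 8 residual degrees of freedom) to 18193 genes, with Benjamini-Hochberg adjustment over all of them at 0.05. The procedure was tested on simulated data drawn independently for each array. Such data hold no pairs, so the test does not show how well changes would be found on these arrays. P-values measure the spread between arrays labelled as replicates, which may share a culture.

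The named genes were all 10 members, up to 4 genes per list with the lowest p, and the 3 most correlated genes per member. The members and lists were chosen with earlier results of these data known.

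Deviations from group means of SP and non-SP arrays with the same number and treatment correlated at 0.55 to 0.84 over genes, which sets the pairing, from the data and not the labels. Anti-EpCAM and untreated arrays of the same number correlated at -0.38 to -0.01, so they are not called pairs. In the fraction comparisons and the interaction, the replicate block took each pair as a block. For the antibody comparisons it took the replicate number, which joins treated and untreated arrays of the same number despite these correlations. Alternatives were the replicate block, centring, a second quantile normalization, a filter on dim genes, the mean of a gene's probe sets, eBayes with trend and leaving out arrays.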

Additional observations from a re-analysis of the deposited data

How the results depend on the processing

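Over 1020 recomputed differences of the members, 0 passed the adjusted threshold in limma, and the lowest adjusted p was 0.628, for Mycn between fractions under anti-EpCAM with the replicate block. The block raised the members at an unadjusted p under 0.05 to 1 in the fraction comparison of each treatment and 2 in the interaction. For the mean of both treatments it left 0. The share of all genes rose as well, from 0.698% to 7.21% under anti-EpCAM and from 0.022% to 1.68% in untreated cells. It rose from 0.236% to 5.51% in the interaction and from 0.104% to 2.13% for the mean of both treatments. The block changed no adjusted call and left the count of called genes at 0. The count of called genes was 0 under each alternative run, each array left out included. Because no difference was called, its sign has little weight: 133 of the 1020 changed sign, 105 of them among 600 with an array or pair of arrays left out, 12 of 70 with the mean of a gene's probe sets, 9 of 70 with centring and 7 of 70 with a second quantile normalization. With 1 pair of arrays left out, the antibody difference of Mxd3 pair means ran from -0.45 to 0.49 and that of Mycn from 0.04 to 0.42. Mycn in anti-EpCAM against untreated non-SP cells was -0.02 with the mean of its probe sets. Mnt was 0.12 in non-SP cells and 0.07 in pair means after centring. Leaving out both arrays of anti-EpCAM replicate 2, scaling the pair differences again and fitting every probe set with 1 symbol were added after seeing the data. Signal over background could not be judged for the dim probe sets of Mycn, Mnt and Mga, since no background values were used.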
